A study of Rattus norvegicus with 4 samples.

Results

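The proteasome genes measured here were the rat genes whose symbols begin with Psma, Psmb, Psmc, Psmd, Psme, Psmf or Psmg followed by a number, 44 of the 14497 genes with a probe set of their own. RefSeq lists 48 such genes in the rat. Psma3, Psma8, Psmf1 and Psmg3 were not analysed here, Psma3 because its probe set is annotated to Psma3l as well. The genes came from an array study of hippocampal neurons of rat embryos, grown in primary culture and transduced with an shRNA against Gld2 (2 cultures) or with a scrambled shRNA as control (2 cultures). Gld2, now named Tent2, is a cytoplasmic poly(A) polymerase, and the study asked what its knockdown does to poly(A) RNA. Poly(A) RNA was captured on poly(U) Sepharose and eluted with heat before amplification and labelling on whole-transcript Affymetrix arrays. The sources used here give neither the shRNA sequences nor the vector, its promoter or the days in culture. They do not say whether cultures of the same group were prepared separately, so the p-values reflect only how these cultures vary, and that variation may be technical. All values are log2 RMA values, a background-corrected and between-array normalised intensity. The small number of arrays limits the precision of each comparison. Every difference is Gld2 shRNA minus scrambled shRNA, in log2 units. A rise or fall is one of these values. The amount of an RNA and its capture on poly(U) Sepharose cannot be told apart in this design.

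The proteasome degrades proteins that carry ubiquitin. Its core particle is a stack of rings, the outer ones built of alpha subunits (Psma genes) and the inner ones of beta subunits (Psmb genes), of which Psmb5, Psmb6 and Psmb7 carry the active sites. A regulatory particle on the ends of the core binds ubiquitin, removes it and threads the substrate in. This particle has a ring of ATPases (Psmc genes) and a set of non-ATPase subunits (most Psmd genes). Interferons induce Psmb8, Psmb9 and Psmb10, which take the places of Psmb5, Psmb6 and Psmb7 in newly assembled particles, and the activator genes Psme1 and Psme2. The resulting immunoproteasome makes peptides suited to MHC class I molecules. In brain it is known mainly from microglia and from inflamed tissue, whereas neurons carry mostly the constitutive form.

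The inducible genes rose and the rest of the proteasome did not pass the test. Of the 44 genes, 5 rose and 0 fell at an adjusted p under 0.05 (limma, moderated across all 14497 genes, Benjamini-Hochberg), against a background of 4.10% of all genes called, 1.69% higher and 2.41% lower. The 5 were Psmb8, Psmb9, Psmb10, Psme1 and Psme2. Their differences ran from 0.48 to 1.64 with a median of 0.66, while the other 39 genes ran from -0.22 to 0.22 with a median of 0.01, against -0.02 over all genes. In each of the 5, both Gld2 shRNA cultures stood above both scrambled shRNA cultures, a pattern shown by 24.0% of all genes. At an unadjusted p under 0.05 the other 39 genes held 3 with higher and 1 with lower values, and 0 passed after adjustment in limma. At the same unadjusted level, 1339 of all 14497 genes were higher and 2348 lower (limma). The counts at an unadjusted p given below are to be read beside these. The targeted gene itself was checked first. Tent2 had values of 9.50 and 9.35 in the Gld2 shRNA cultures, against 10.73 and 10.67 in the scrambled shRNA cultures, a 2.43-fold fall that matches the labels.

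Psmb9, the inducible subunit that replaces Psmb6, changed most. Psmb9 had log2 values of 11.23 and 11.14 in the Gld2 shRNA cultures, against 9.42 and 9.66 in the scrambled shRNA cultures. The groups lay far apart, and the means were 11.19 ± 0.0628 and 9.54 ± 0.167 (SD, n = 2 each). The difference was 1.64 (95% confidence interval 1.41 to 1.87, standard error 0.0939), a 3.12-fold rise (adjusted p = 0.000681, limma). It held rank 42 among the differences of all genes.

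Psmb8, which replaces Psmb5, had values of 8.43 and 8.42 in the Gld2 shRNA cultures, against 7.71 and 7.82 in the scrambled shRNA cultures. The Gld2 shRNA cultures nearly coincided, well above both scrambled shRNA cultures. The difference was 0.66 with a standard error of 0.0666, a 1.58-fold rise (adjusted p = 0.00771, limma). Psmb10, which replaces Psmb7, had values of 9.95 and 9.98 in the Gld2 shRNA cultures, against 9.39 and 9.35 in the scrambled shRNA cultures. Here the cultures of each group nearly coincided. The difference was 0.60 with a standard error of 0.0603, a 1.51-fold rise (adjusted p = 0.00771, limma). The confidence intervals of Psmb8 (0.50 to 0.82) and Psmb10 (0.45 to 0.74) overlap widely, and both end below the interval of Psmb9.

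Psme1 and Psme2 encode the alpha and beta subunits of an activator ring that docks on the core without ATP and without ubiquitin. Psme1 had values of 11.18 and 11.14 in the Gld2 shRNA cultures, against 10.65 and 10.70 in the scrambled shRNA cultures. The difference was 0.48 with a standard error of 0.0614, a 1.40-fold rise and the smallest of the 5 (adjusted p = 0.0171, limma). Psme2 had values of 11.92 and 11.99 in the Gld2 shRNA cultures, against 11.13 and 11.38 in the scrambled shRNA cultures. Its scrambled shRNA cultures were the most spread of the 5 genes, with an SD of 0.176. The difference was 0.70 with a standard error of 0.0952, a 1.63-fold rise (adjusted p = 0.0212, limma). With all 28826 probe sets tested, Psme1 and Psme2 missed the threshold at adjusted p = 0.0545 and 0.0597 in limma. Without scrambled shRNA replicate 1 or 2, where the Gld2 shRNA cultures alone supply the spread, 1 of the 5, Psmb9, stayed past it, and without moderation across genes 0 did. Without Gld2 shRNA replicate 2, Psme2 missed it at adjusted p = 0.0650 (limma). The differences of the 5 stayed above 0 in each of 15 alternatives that tested them (the filter at the median level drops Psmb8), with Psmb9 from 1.52 to 1.76 and Psme1 from 0.39 to 0.55. Many of these alternatives could not turn a sign. Moderation, the filters, testing all probe sets and the replicate block leave a difference as it was. Leaving out a culture cannot turn it where the groups do not overlap, as in all 5.

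**Figure D1:**
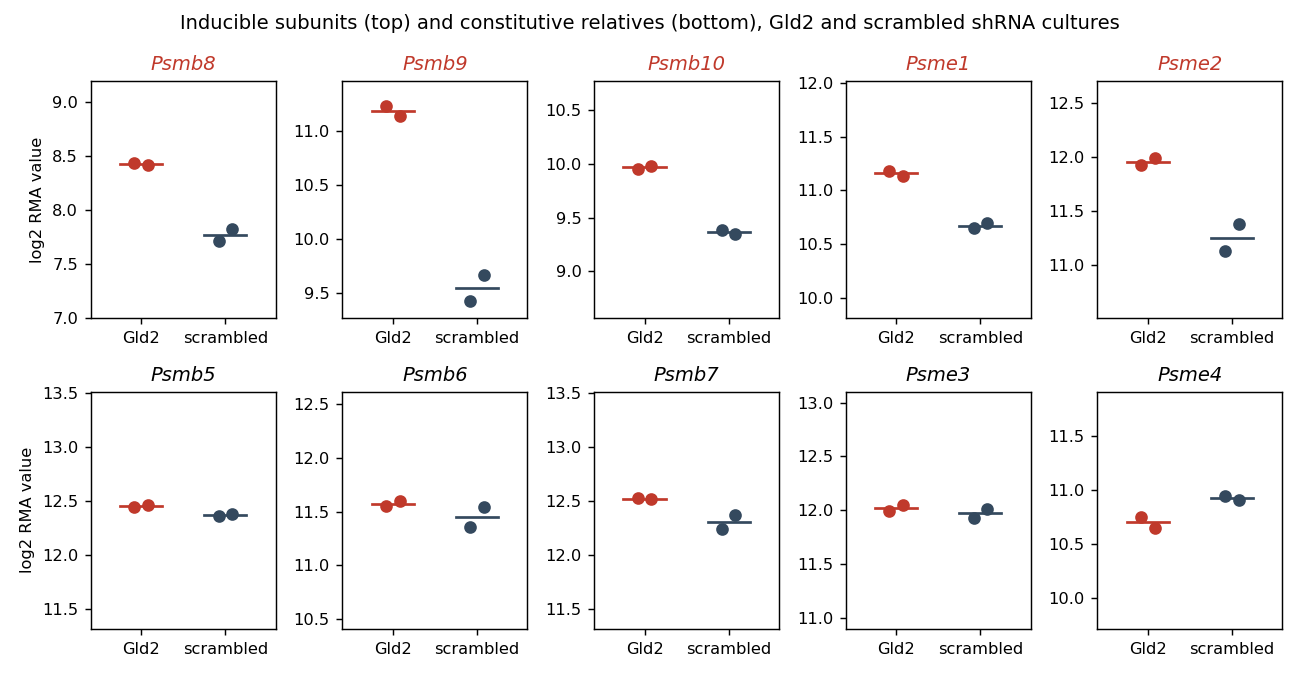
Log2 RMA values (vertical axes, each spanning the same range) of the 5 inducible genes in the top row and of constitutive relatives in the bottom row, Gld2 shRNA cultures left and scrambled shRNA cultures right. Points are the 2 cultures of a group and bars their mean. The groups are apart in every top panel and also for Psmb5, Psmb6, Psmb7 and Psme4, and they overlap for Psme3. Psmb5, Psmb6, Psmb7 and Psme3 differ by 0.05 to 0.22 and Psme4 lies lower in the Gld2 shRNA cultures. Over all genes, the Gld2 shRNA cultures lay above in 24.0% and below in 34.5%.

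The promoters of the 5 genes are shown because the 5 moved together and because interferon-responsive promoters carry known short elements. RefSeq (build GRCr8) gave a window of 250 bases before to 50 bases after the annotated start for 39 of the 44 genes. Capitals mark matches to the interferon-stimulated response element, searched as GAAA, any 2 bases and GAAA again, and to the gamma-activated site, searched as TTCNNNGAA, each on both strands. The sequences run 5′ to 3′ on the strand of the gene.
Psmb8, chr20:4656982-4657281, minus strand: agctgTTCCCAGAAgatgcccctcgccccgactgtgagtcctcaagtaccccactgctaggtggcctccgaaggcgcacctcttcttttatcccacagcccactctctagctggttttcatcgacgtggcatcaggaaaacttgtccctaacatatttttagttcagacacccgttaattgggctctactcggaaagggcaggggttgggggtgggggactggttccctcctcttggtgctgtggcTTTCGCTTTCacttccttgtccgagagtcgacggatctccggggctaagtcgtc
Psmb9, chr20:4668750-4669049, plus strand: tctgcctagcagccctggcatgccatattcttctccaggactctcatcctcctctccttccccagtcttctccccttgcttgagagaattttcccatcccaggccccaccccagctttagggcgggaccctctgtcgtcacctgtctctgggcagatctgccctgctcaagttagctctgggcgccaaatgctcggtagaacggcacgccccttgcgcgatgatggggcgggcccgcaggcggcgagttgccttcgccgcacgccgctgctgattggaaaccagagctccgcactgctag
Psmb10, chr19:50743243-50743542, minus strand: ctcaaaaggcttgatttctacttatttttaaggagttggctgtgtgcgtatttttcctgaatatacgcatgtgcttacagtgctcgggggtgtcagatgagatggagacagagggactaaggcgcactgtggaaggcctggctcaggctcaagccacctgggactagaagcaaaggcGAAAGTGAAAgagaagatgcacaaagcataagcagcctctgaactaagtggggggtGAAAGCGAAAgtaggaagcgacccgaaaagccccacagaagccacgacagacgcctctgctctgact
Psme1, chr15:33038721-33039020, plus strand: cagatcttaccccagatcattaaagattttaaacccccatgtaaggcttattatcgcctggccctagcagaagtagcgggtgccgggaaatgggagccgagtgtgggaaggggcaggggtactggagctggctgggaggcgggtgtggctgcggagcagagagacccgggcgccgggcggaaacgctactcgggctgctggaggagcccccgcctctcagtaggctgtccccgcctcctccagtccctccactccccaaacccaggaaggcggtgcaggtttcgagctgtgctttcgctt
Psme2, chr15:33052702-33053001, minus strand: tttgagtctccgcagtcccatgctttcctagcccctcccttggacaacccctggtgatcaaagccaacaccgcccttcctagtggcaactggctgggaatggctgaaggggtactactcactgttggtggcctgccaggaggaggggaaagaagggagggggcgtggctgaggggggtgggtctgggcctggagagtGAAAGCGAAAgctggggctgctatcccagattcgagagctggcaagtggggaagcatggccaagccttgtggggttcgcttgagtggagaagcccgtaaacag

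Psmb10 held response element matches that begin at -73 and -17 from the start, and Psme2 held one that begins at -53, all on the strand of the gene. Psmb8 held a match on the opposite strand that begins at -4 and runs across the start, and a TTCNNNGAA match that begins at -245. The windows of Psmb9 and Psme1 held neither. The Psme1 window ends in tttcgctt, the letters that begin the Psmb8 match, and the bases beyond it were not searched. In all, the response element was found in 3 of the 5 windows and in 4 of the 34 windows of the other proteasome genes (Psma4, Psmb3, Psmd7 and Psmg4), against 3.77% of 27457 promoters. TTCNNNGAA was found in 1 of the 5 and in 3 of the 34, against 8.68% of promoters. The antioxidant response element, which the proteasome regulator Nfe2l1 binds, was searched as TGACNNNGC. It was found in 0 of the 5 and in 7 of the 34, among them Psmb5 and Psmb6, against 12.2% of promoters. No match of one element overlapped a match of another in the windows printed. These are matches of letters, not shown to be bound, and a missing match says only that the letters are not in the window.

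**Figure D2:**
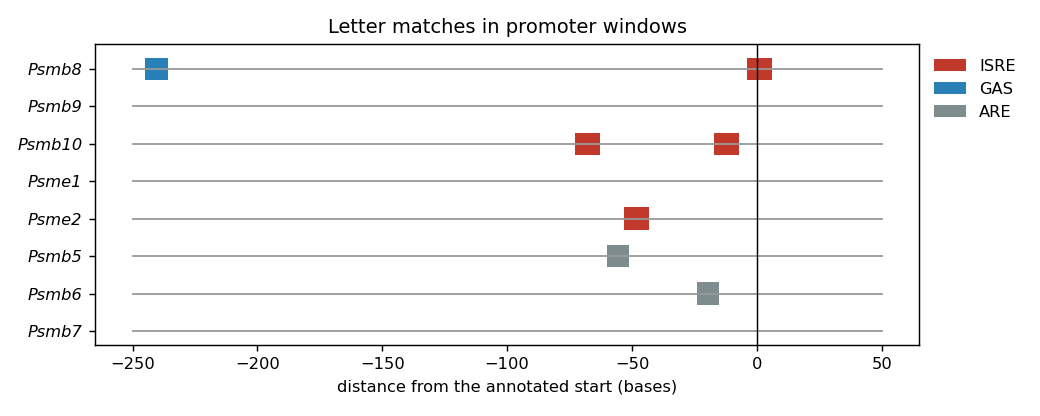
Promoter windows of the 5 inducible genes and of Psmb5, Psmb6 and Psmb7, with distance from the annotated start in bases on the horizontal axis. Boxes mark matches to the interferon-stimulated response element (ISRE), the gamma-activated site (GAS) and the antioxidant response element (ARE). The ISRE boxes lie in Psmb8, Psmb10 and Psme2, and the ARE boxes in Psmb5 and Psmb6.

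Of the 5 genes, 4 lie close to another of them. In the RefSeq gene order of GRCr8, Psmb8 and Psmb9 lie on chromosome 20 in the MHC with Tap1 between them and Tap2 on the other side of Psmb8. Tap1 and Psmb9 are transcribed in opposite directions and their promoter windows overlap. The Tap1 window held a response element match that begins at -121 from the start of Tap1, outside the Psmb9 window. Psme1 and Psme2 lie on chromosome 15 with Emc9 between them, and Irf9 lies next but one to Psme2. Psmb10 stands alone of the 5 on chromosome 19. Of 14 other genes within 2 places of the 5, 13 were measured and 3 passed the test, where 4.10% of all genes did. These 3 are counted again in the gene lists below. Tap1, Tap2 and Irf9 rose, by 1.36, 0.62 and 1.40 on the log2 scale (adjusted p = 0.000383, 0.00886 and 0.000278, limma). The other 10 did not pass and lay between -0.14 (Ctrl) and 0.30 (Lcat), with Emc9 at 0.11, Rnf31 at 0.06 and RT1-DMb at 0.09.

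The genes that the inducible subunits replace had small values above 0. Psmb5, which carries the chymotrypsin-like site, had values of 12.45 and 12.47 in the Gld2 shRNA cultures, against 12.36 and 12.38 in the scrambled shRNA cultures, a difference of 0.09 (95% confidence interval -0.06 to 0.23). Psmb6, with the caspase-like site, had values of 11.55 and 11.59 in the Gld2 shRNA cultures, against 11.35 and 11.54 in the scrambled shRNA cultures, a difference of 0.12 (-0.07 to 0.32). Psmb7, with the trypsin-like site, had values of 12.53 and 12.52 in the Gld2 shRNA cultures, against 12.24 and 12.37 in the scrambled shRNA cultures. In Psmb5, Psmb6 and Psmb7 the Gld2 shRNA cultures lay above the scrambled shRNA cultures, as in 24.0% of all genes, and none passed the test. Psmb7 came nearest, with a difference of 0.22, an interval from 0.05 to 0.39 and an adjusted p of 0.129 (limma). It passed with an intensity-dependent prior variance (adjusted p = 0.00225) and without genes under the median level (0.0337), both in limma. Under these settings 621 of 14497 and 309 of 7249 genes were higher. Since the arrays compare a probe set with itself across cultures, the levels of an inducible subunit and its constitutive counterpart are not set against each other.

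The change in the log2 ratio of inducible to constitutive gene was above 0 in all 5 pairs compared. It was 1.52 for Psmb9 over Psmb6, with 1.58 and 1.45 in the Gld2 shRNA cultures, against -0.02 and 0.02 in the scrambled shRNA cultures, each relative to the scrambled shRNA mean. For Psmb8 over Psmb5 it was 0.57, with 0.59 and 0.56 in the Gld2 shRNA cultures, against -0.04 and 0.04 in the scrambled shRNA cultures. For Psmb10 over Psmb7 it was 0.38, the smallest, since Psmb7 also had a value above 0. The activator genes Psme1 and Psme2 over their relative Psme3 gave 0.43 and 0.65. In each pair the groups did not overlap. The pairs are built on the 5 genes that rose, and Psme3 serves both Psme1 and Psme2, so they add no separate observations. Among single genes, 24.0% had both Gld2 shRNA cultures above both scrambled shRNA cultures. An exact two-sided permutation test over the 4 cultures gave p = 0.333, also after adjustment over the 5 pairs. That is the smallest value that 2 against 2 cultures allow.

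The remaining beta subunit genes had values above 0 as well. Of the 8 Psmb genes outside the inducible set, 0 passed the adjusted threshold, 2 had an unadjusted p under 0.05 (limma), and 8 had differences above 0, from 0.03 (Psmb1) to 0.22 (Psmb7), with a median of 0.11. Over all genes, 46.2% of differences were above 0. In 7 of the 8 the Gld2 shRNA cultures lay above both scrambled shRNA cultures, against 24.0% of all genes. Psmb2, Psmb3 and Psmb4, structural subunits of the ring, stood at 0.10, 0.13 and 0.09. Of these, Psmb3 passed with an intensity-dependent prior variance (adjusted p = 0.0347, limma), where 621 of 14497 genes were higher. Psmb11, which takes the place of Psmb5 in the thymus of mice, had values of 7.47 and 7.49 in the Gld2 shRNA cultures, against 7.36 and 7.29 in the scrambled shRNA cultures, with the groups apart. Their median stayed above 0 under every alternative, from 0.08 to 0.18, though both filters on dim genes drop Psmb11 and leave 7 genes. Psmb1 turned to -0.01 without Gld2 shRNA replicate 2.

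The alpha ring gates the entrance to the core. Of 6 Psma genes, 0 passed the adjusted threshold (1 at an unadjusted p under 0.05, limma), 3 had values above 0 and 3 below, with a median of 0.01. After cyclic loess and after centring on the annotated genes, 6 of 6 were above 0, with medians of 0.07 and 0.08. Psma6 had the highest difference. Its values were 10.82 and 10.76 in the Gld2 shRNA cultures, against 10.61 in both scrambled shRNA cultures, a difference of 0.17 (adjusted p = 0.156, limma). It passed with an intensity-dependent prior variance (adjusted p = 0.0431), without genes under the median level (0.0437) and after cyclic loess, all in limma. Under these settings 621 of 14497, 309 of 7249 and 370 of 14497 genes were higher. Psma4 had the lowest, at -0.05, and it turned to 0.02 after cyclic loess and after centring on the annotated genes.

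In the regulatory particle, the genes lay on both sides of 0. Of the 6 ATPase genes, 0 passed the adjusted threshold, 0 had an unadjusted p under 0.05 (limma) and 4 had values below 0, with a median of -0.05. Psmc5 had the lowest difference. Its values were 9.09 and 9.13 in the Gld2 shRNA cultures, against 9.27 and 9.23 in the scrambled shRNA cultures, a difference of -0.14 (95% confidence interval -0.28 to 0.01). Psmc1 and Psmc4 both stood at -0.09 and Psmc2 at 0.05. The median of the ATPase genes was 0.02 after cyclic loess and after centring on the annotated genes, so its sign depends on the scaling.

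The 14 Psmd genes lay close to 0. They held 0 past the adjusted threshold and 0 at an unadjusted p under 0.05 (limma), with differences from -0.09 (Psmd7, a scaffold partner of the deubiquitinase) to 0.07 (Psmd5, a chaperone in the assembly of the base) and a median of -0.02. Psmd14, the deubiquitinase that cuts ubiquitin from the substrate, had values of 11.16 and 11.11 in the Gld2 shRNA cultures, against 11.14 and 11.08 in the scrambled shRNA cultures. Psmd4, a ubiquitin receptor, had values of 9.96 and 9.95 in the Gld2 shRNA cultures, against 9.93 and 10.03 in the scrambled shRNA cultures. In Psmd14 and Psmd4 the groups overlapped, as they did in 10 of the 14, and in the other 4 the Gld2 shRNA cultures lay below, against 34.5% of all genes. The confidence intervals were -0.13 to 0.18 for Psmd14 and -0.18 to 0.14 for Psmd4. The median of the Psmd genes ran from -0.05 to 0.05 over the alternatives and was above 0 after cyclic loess (0.04) and after centring on the annotated genes (0.05).

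Among the other activators, Psme3, a nuclear relative of Psme1 and Psme2 that interferon does not induce, stood at 0.05 with overlapping groups. Psme4, which encodes a large ATP-independent activator, had the lowest difference of the 44 genes. Its values were 10.75 and 10.65 in the Gld2 shRNA cultures, against 10.94 and 10.90 in the scrambled shRNA cultures. The difference was -0.22 (95% confidence interval -0.39 to -0.06, standard error 0.0662) and did not pass, at adjusted p = 0.115 in limma. It passed without genes under the median level (adjusted p = 0.0270) and with an intensity-dependent prior variance (0.0126), both in limma. Under these settings 1287 of 7249 and 1611 of 14497 genes were lower. The Psme4 difference was -0.27 without Gld2 shRNA replicate 1 and -0.11 with the gene length trend removed. The assembly chaperone genes Psmg1, Psmg2 and Psmg4 stood at -0.14, -0.03 and 0.00, with 0 past the adjusted threshold and 0 at an unadjusted p under 0.05 (limma).

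**Figure D3:**
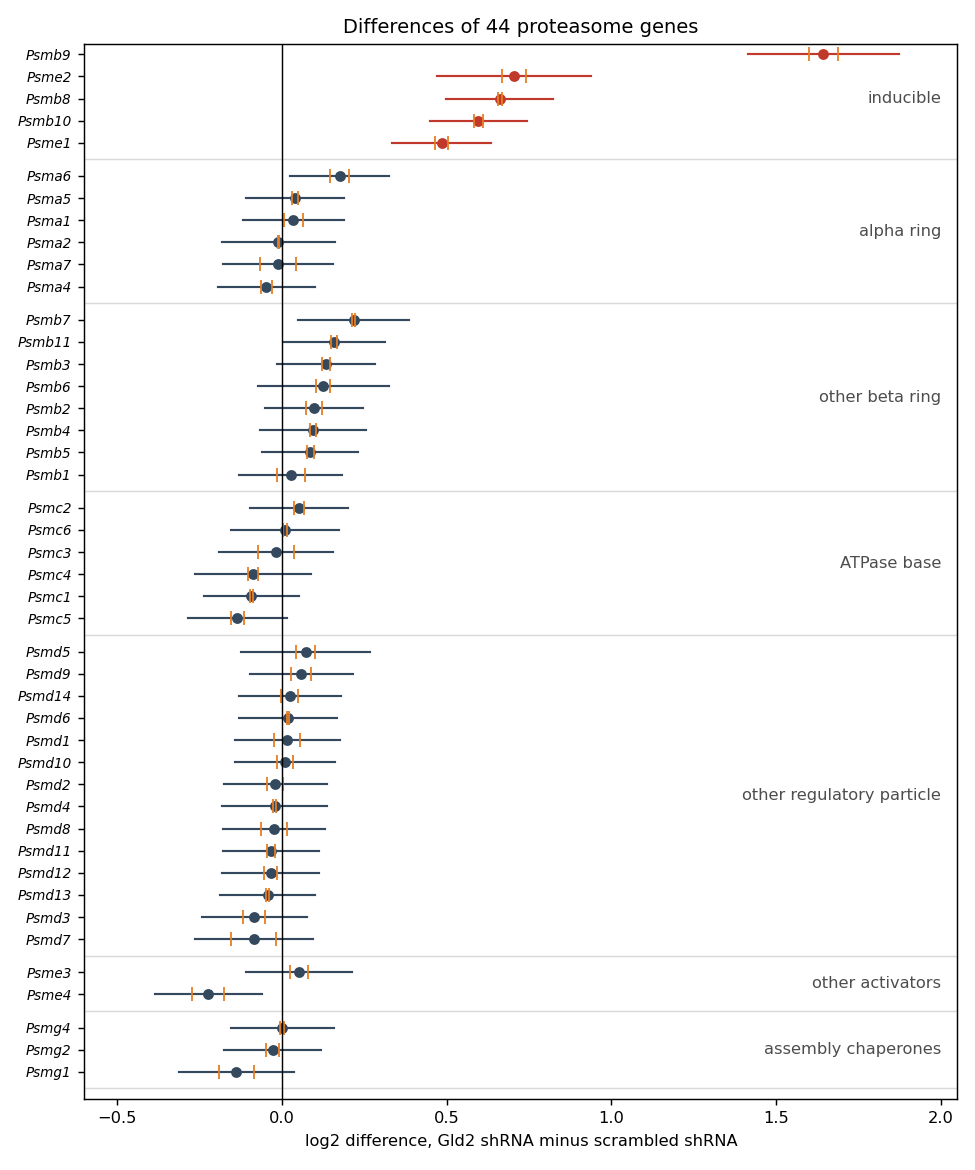
Log2 difference, Gld2 shRNA minus scrambled shRNA, of the 44 proteasome genes by family. Dots are the limma estimates, lines their 95% confidence intervals, and orange ticks each Gld2 shRNA culture minus the scrambled shRNA mean. The 5 inducible genes lie at 0.48 and above, the other 39 between -0.22 and 0.22.

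Factors that work with the proteasome but lie outside these gene names did not pass either. Of 20 measured genes of a list of 26 receptors, deubiquitinases, assembly and regulating factors, 0 passed the adjusted threshold and 4 had an unadjusted p under 0.05 in limma, with a median of -0.01. Pomp, the maturation factor of the core that interferon also induces, had values of 11.20 and 11.29 in the Gld2 shRNA cultures, against 10.99 and 11.01 in the scrambled shRNA cultures. The difference was 0.24 (adjusted p = 0.0974, limma). The other 3 were lower. Ngly1 and Ddi2, which process the transcription factor Nfe2l1, stood at -0.28 and -0.33, and Nudc, a co-chaperone, at -0.26 (adjusted p = 0.0799, 0.0889 and 0.0788, limma). Nfe2l1 itself, which drives proteasome genes when proteasome activity is low, stood at 0.05. Of 6 listed ubiquitin and ubiquitin-activating genes, the E1 genes Uba1 and Uba6 were measured, at -0.02 and -0.28, and 0 passed (1 at an unadjusted p under 0.05, limma).

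Genes that act on either side of the immunoproteasome were read next, and some of them rose. Of 21 measured genes of class I peptide transport, trimming and loading, 12 rose, 1 fell and 8 did not pass (limma), with a median of 0.43, where 1.69% of all genes rose and 2.41% fell. RT1-S3, a class Ib gene, rose by 2.14, the peptide transporter gene Tap1 by 1.36, RT1-N3 by 1.14, the loading factor Tapbp by 1.03, RT1-CE10 by 1.03 and Tap2 by 0.62. The RT1 genes resemble each other in sequence, so their probe sets may share signal. The gene that fell was Lnpep, an aminopeptidase, at -0.34. At an unadjusted p under 0.05 (limma), 15 of the 21 were higher and 1 lower. Without scrambled shRNA replicate 1 or 2 the rises numbered 5 in each case.

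Of 16 listed genes of interferon signalling, 13 were measured. Of these, 5 rose, 0 fell and 8 did not pass (limma), beside the same 1.69% and 2.41% over all genes. The median of the 13 was 0.11. At an unadjusted p under 0.05 (limma), 6 were higher and 1 lower. Irf1, a transcription factor known in human cells to act on the shared Psmb9 and Tap1 promoter, had values of 10.51 and 10.43 in the Gld2 shRNA cultures, against 9.15 and 9.19 in the scrambled shRNA cultures, a rise of 1.30. Irf7, Stat2, Irf9 and Irf2 rose by 2.80, 1.43, 1.40 and 0.34, with Irf2 near the threshold (adjusted p = 0.0426, limma). The interferon genes Ifnb1 (0.30) and Ifng (-0.33, the lowest of the 13) did not pass. Ifnb1 had values of 6.93 and 7.19 in the Gld2 shRNA cultures, against 6.83 and 6.69 in the scrambled shRNA cultures.

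**Figure D4:**
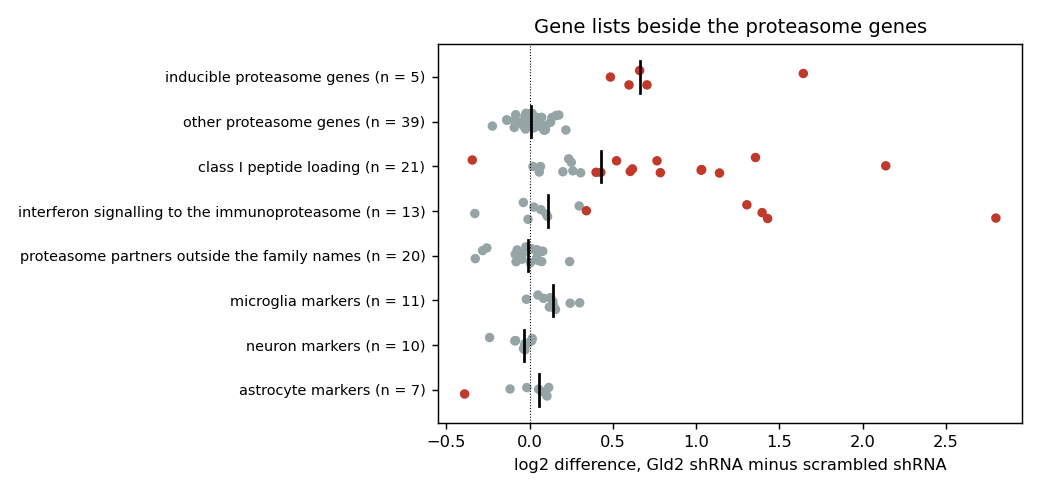
Log2 difference, Gld2 shRNA minus scrambled shRNA, of each measured gene in 8 sets. Red points passed an adjusted p under 0.05, grey points did not, and black bars are medians. The inducible proteasome genes have a median of 0.66, the other proteasome genes 0.01, class I peptide loading 0.43, interferon signalling 0.11 and microglia markers 0.14.

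Markers of the cells that could be in the cultures were read beside these results. The 10 neuron markers lay between 11.93 and 13.37, and 0 passed (1 at an unadjusted p under 0.05, limma), with a median difference of -0.03 and summed linear levels of 74157 to 74509 in the Gld2 shRNA cultures, against 76513 to 76809 in the scrambled shRNA cultures. Astrocyte transcripts were present too, with 7 markers measured, 1 of which fell (Gja1, -0.39) and a median of 0.05. Microglia, the brain cells best known for the immunoproteasome, had 11 markers measured, of which 0 passed and 2 had an unadjusted p under 0.05 (limma), with a median of 0.14 and 10 of 11 above 0. Their summed linear level was 2582 to 2723 in the Gld2 shRNA cultures, against 2391 to 2470 in the scrambled shRNA cultures. The microglia markers lay between 6.45 and 8.89, and their highest differences were Cx3cr1 (0.30) and C1qb (0.24). The 7 dendritic and T cell markers had a median of 0.19 with 0 past the threshold (3 at an unadjusted p under 0.05, limma) and summed levels of 1223 to 1314 in the Gld2 shRNA cultures, against 1195 to 1210 in the scrambled shRNA cultures. Among 6 oligodendrocyte lineage markers, Cnp rose (0.54), Mbp was lowest (-0.29, not past the threshold) and the median was 0.02. At an unadjusted p under 0.05 (limma) these markers held 1 higher and 1 lower. Among 8 endothelial and fibroblast markers 0 passed (2 at an unadjusted p under 0.05, limma), with a median of 0.06. RMA values have no 0, and no detection calls were used, so no marker is listed at 0. The part of these cell types in the rise of the inducible genes was not tested. In such captured bulk RNA, more cells of a type, more RNA per cell and more capture of the RNA cannot be told apart.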

How the data were processed

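Log2 RMA values of 28826 probe sets on 4 arrays (2 Gld2 shRNA, 2 scrambled shRNA) were used as deposited. Per the submitters' processing notes, the authors used affy and RMA to make these log2 values, with versions, settings and build not given in the sources used here. Their range (3.23 to 14.3) fits a log2 scale, and array medians were 8.41 to 8.48. RMA forces a common distribution, so a shift shared by most genes is not visible. Scan dates and detection calls were not used here.

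The platform annotation gave 1 symbol for 15209 probe sets, several for 306 and none for 13311. Of the named probe sets 15178 matched RefSeq GRCr8 by gene identifier. The probe set with the highest mean was kept per gene, which gave 14497 genes. Groups were compared with lmFit and eBayes (limma 3.58.1, R 4.3.3, two-sided, Benjamini-Hochberg, threshold 0.05), with 2 residual and 3.96 prior degrees of freedom. The fit was tested on simulated data. Ratio changes were tested by exact permutation.

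The members and gene lists were chosen with earlier results of these data known. Named were Tent2, the inducible genes and their relatives, family extremes and up to 6 list members past the threshold with the smallest p. Other members were named after their values were seen, to show roles or ranges. Alternatives were the moderation, filters on dim genes, cyclic loess, centring, removal of the trend with gene length, other handling of probe sets, a replicate block and leaving out each culture. Centring on the annotated genes was added after the data were seen.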

Additional observations from a re-analysis of the deposited data

How the results depend on the processing

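The count of proteasome genes called higher (5) and lower (0) was 8 and 1 with an intensity-dependent prior variance, 0 and 0 without moderation across genes, 6 and 1 without genes under the median level (Psmb8 not tested), and 3 and 0 with all probe sets tested. Leaving out 1 culture gave 1 to 5 higher and 0 to 1 lower. The 1 lower gene was Psme4. The median of the inducible minus the other genes, 0.65, was 0.61 with the length trend removed and 0.59 to 0.72 without 1 culture. The 5 ratio changes kept their sign, and their exact p cannot fall below 0.333. Moderation, the filters and centring leave these ratios as they were. Leaving out a culture cannot turn the sign of ratios whose groups do not overlap. Over all genes, 245 higher and 349 lower became 621 and 1611 with an intensity-dependent prior variance, 1 and 0 without moderation, 370 higher after cyclic loess, and 558 and 1367 after centring on all probe sets. The lower genes became 949 and 1287 without genes under the 25th percentile or the median, 94 after centring on the annotated genes, 231 with the length trend removed and 116 with all probe sets. Without 1 culture the higher genes ran from 82 to 1283 and the lower from 3 to 1406. The cause of these shifts was not tested. Signs turned in members near 0. Psma4, Psmd4 and Psmg2 reached 0.0197, 0.085 and 0.0458 after cyclic loess, and 0.022, 0.0474 and 0.0417 after centring on the annotated genes. Psmd14 and Psmg4 stood at -7.71e-06 and -0.0225 after centring on all probe sets, and Psmg4 at -0.0373 with the length trend removed. Without 1 culture the ranges were -0.0146 to 0.0685 (Psmb1), -0.0684 to 0.0231 (Psmd4), -0.0177 to 0.161 (Psmd5), -0.00671 to 0.0538 (Psmd14) and -0.0418 to 0.044 (Psmg4). In all, 19 of the 44 genes changed sign under at least 1 of 15 alternatives, and 0 of the 5 inducible ones. Moderation, the filters, testing all probe sets and the replicate block cannot turn a sign. Nor can leaving out a culture in the 5, whose groups do not overlap. With the last digit in each sample title as a replicate block, 5 members were higher and 0 lower. Same-numbered arrays had deviations with a correlation of 0.143 over genes, 2 pairs are too few to show a pairing, and the labels give the digit no meaning. The number of arrays and the lack of detection calls limit what can be said of probe sets near background.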

Other observations

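A second probe set was annotated to 7 of the 44 genes. For Psme2 it gave nearly the same difference, 0.69 against 0.70 in the probe set used above, with values of 11.25 and 11.37 in the Gld2 shRNA cultures, against 10.51 and 10.74 in the scrambled shRNA cultures. For Psme1 its difference was smaller, 0.29, with values of 8.47 and 8.32 in the Gld2 shRNA cultures, against 7.99 and 8.21 in the scrambled shRNA cultures, and the mean of both probe sets of Psme1 narrowly missed the threshold (adjusted p = 0.0502, limma). Psmb6, Psma6, Psmc4 and Psme3 kept their sign at 0.15, 0.09, -0.07 and 0.14. Psmd8 did not, with 0.20 in the second probe set and -0.02 in the first. The sources used here do not give the loci that these second probe sets read.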
